A study of Mus musculus with 2 samples.

Results

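The Gpnmb-high non-cycling macrophages of injured muscle at day 3 were 720 of the 4627 cells kept from that library, a share of 15.6% (95% Clopper-Pearson interval 14.5 to 16.6%). They were 720 of the 11362 cells kept over both days. Each was required to have at least 0.05% of its UMIs (unique molecular identifiers, the counted RNA molecules) from Gpnmb, at least 1 UMI of Trem2 and at least 0.3% from Lyz2. The summed share of the collagen and decorin genes Col1a1, Col1a2, Col3a1 and Dcn had to stay under 0.3%, and the proliferation genes Top2a and Mki67 under 2 UMIs together. Adgre1 and Ly6a were not used to choose the cells. The cells came from quadriceps of male wild-type C57BL/6J mice aged 14 weeks, with 1 library at day 1 and 1 at day 3 after an intramuscular injection of BaCl2, a salt that kills myofibres. Each library pooled the muscles of several mice, digested with collagenase and dispase and sorted by scatter against dead cells, doublets and debris, so myofibres themselves were not sampled. With 1 pooled library per day there was no replicate and no test. All intervals below cover counting error only, and a difference between the days cannot be told apart from a difference between the libraries.

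Gpnmb encodes a transmembrane glycoprotein of endosomes, lysosomes and melanosomes, and Trem2 a receptor for lipids and for debris of dead cells that signals through Tyrobp. After toxic muscle injury, blood monocytes enter the tissue, turn into macrophages that engulf the dead fibres, and later give way to macrophages that secrete growth factors for the muscle stem cells. A macrophage full of engulfed membrane must break it down in lysosomes, bind and export the freed fatty acids and cholesterol, and store the iron of myoglobin and heme. Genes of these tasks are described first, and genes of monocytes, inflammation and antigen presentation after them.

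The day 3 library held 102565783 UMIs over all barcodes and the day 1 library 74852240. No barcode taken as a cell occurred in both, but the lists of possible barcodes differed between the matrices, so this is no check of carry-over. Whether the library chemistry differed between the days was not settled. The 720 cells held 13198202 UMIs. Their median was 17993 UMIs per cell, with quartiles of 13309 and 22945, a median of 3772 genes and a median mitochondrial share of 3.78%. In the day 3 library 30.3% of the barcodes taken as cells exceeded the mitochondrial limit of 7.5%, against 7.02% at day 1, and 100 barcodes that met every gene criterion were left out by that limit. Free RNA made up at most 0.977% of the UMIs of the Gpnmb-high cells and at most 4.67% of those of the day 1 macrophages described below.

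The share of Gpnmb in a cell ranged from 0.0506% to 1.00% of its UMIs, with a median of 0.159% and quartiles of 0.0996 and 0.265%. In UMIs the median was 28 and the range 1 to 320, and 13 cells had 3 Gpnmb UMIs or fewer. There was no gap at the limit. The 40 cells between 0.05 and 0.06% carried Spp1 at 14495 CPM (UMIs of the gene per 1000000 UMIs of the group) and Fabp5 at 3852, and 64 macrophages between 0.04 and 0.05% carried them at 10486 and 2592. Syngr1 stood at 480.5 CPM just inside and 484 just outside. The Trem2 criterion alone removed 3 cells. Of the 720 cells, 591 had no UMI of Top2a or Mki67 and 129 had 1. At 1 day after injury the same criteria were met by 36 cells, 0.535% (0.375 to 0.739%) of the cells kept there.

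The macrophage label held in genes that were not used to choose the cells. Adgre1, which encodes the macrophage surface protein F4/80, had a UMI in 96.7% (95.1 to 97.9%) of them, and Fcgr1, the high-affinity IgG receptor CD64, in 89.9% (87.4 to 92.0%). In 535 stromal cells of the same library, with a median of 22797 UMIs, these shares were 4.30% and 3.74%. After every cell was thinned to 3000 UMIs they were 63.7% and 48.3% in the Gpnmb-high cells and 0.952% and 1.33% in the stromal cells, so both genes lay far above the background of free RNA. Pdgfra, a receptor of fibroblast-like cells, had a UMI in 9 of the 720 cells (1.25%) and in 94.0% of the stromal cells. Ly6a had a UMI in 15.4% of the Gpnmb-high cells. Limits modelled on those of the study, a log-normalized level of at least 1 for both Adgre1 and Fcgr1 and no UMI of Pdgfra or Ly6a, would keep 298 of the 720 cells (41.4%, 37.8 to 45.1%). The study first chose clusters and normalized its counts in another way, and neither step was followed here. The summed level of the markers of other cell types was 5.2 CPM for 7 dendritic cell genes, 7.0 for 4 endothelial genes, 2.3 for 5 genes of satellite cells and myoblasts and 3.3 for 6 myofibre genes. It was 0.5 for 4 genes of T and NK cells and 5.1 for 3 B cell genes, and all 4 globin genes of red cells were at 0. Higher sums were those of 9 monocyte genes at 855 CPM, 6 neutrophil genes at 137 and 7 stromal genes, 4 of them criteria, at 73.5. After thinning 54.2% of the Gpnmb-high cells had 2 or more UMIs of the monocyte genes.

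Cells in division had been left out by Top2a and Mki67 alone, so other genes of the cell cycle were examined. Of 15 S phase genes, which copy DNA, the Gpnmb-high cells had 2 or more UMIs in 29.4% of cells after thinning, against 26.9% of Gpnmb-low macrophages and 77.6% of cycling Gpnmb-high macrophages. For 14 mitosis genes these shares were 3.10%, 5.14% and 50.2%. The cells chosen as non-cycling therefore carried S phase genes about as often as the Gpnmb-low macrophages chosen by the same limit. They carried them more often than the day 1 macrophages, also chosen by that limit, at 12.5%. Against the latter, 8 of 10 compared S phase genes were at least 2-fold higher, beside 16.7% of all genes compared. The name non-cycling thus stands for the limit on Top2a and Mki67 alone, and cells in S phase may remain among the Gpnmb-high cells.

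Levels are given below as CPM over the summed UMIs of all cells of a group, with an exact Poisson 95% interval. They come from 3-prime tags, one per RNA molecule, and are compared between groups within a gene. The main comparison was with 1301 Gpnmb-low macrophages of the same library. They were non-cycling cells with Gpnmb under 0.05% of UMIs, the same Lyz2 and stromal limits and at least 1 Adgre1 UMI, and they had a median of 10752 UMIs per cell. The other comparisons were with 205 cells that met every criterion but had 2 or more UMIs of Top2a and Mki67, and with 2310 non-cycling macrophages of day 1 with any Gpnmb level. No limit kept monocytes out of the Gpnmb-low or day 1 group. After thinning, 88.5% and 95.5% of their cells had 2 or more UMIs of the 9 monocyte genes, against 54.2% of the Gpnmb-high cells. Those groups may therefore hold monocytes, though they are called macrophages below. Because Gpnmb chose the cells, every difference from the Gpnmb-low macrophages is a description of the selected cells.

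Gpnmb itself stood at 2159.8 CPM (2135 to 2185) in the selected cells, 92.5 in Gpnmb-low macrophages, 36.5 in day 1 macrophages and 1729 in the cycling cells. Trem2, also a criterion, stood at 1201, 590.3, 133 and 1021 CPM in the same order. Both were highest in the selected cells, as the choice required of Gpnmb. Syngr1, a membrane protein of small vesicles, was not a criterion and stood at 741 CPM (727 to 756), against 167 in Gpnmb-low macrophages, 8.36 at day 1 and 606 in the cycling cells. Per cell, its quartiles were 362, 674 and 1038 CPM in the selected cells, while the median Gpnmb-low macrophage had none. The group level of Syngr1 was thus higher in both Gpnmb-high groups than in both others. It did not change at the Gpnmb limit, with 480.5 CPM just inside and 484 just outside. Fcrls, an Fc receptor-like protein best known from microglia, behaved otherwise. Its level was 300.3 CPM (291 to 309.8) in the selected cells, 272 in Gpnmb-low macrophages, 292 in cycling cells and 17.4 at day 1. Fcrls therefore separated day 3 from day 1 and hardly separated Gpnmb-high from Gpnmb-low macrophages within day 3, with a log2 ratio of 0.14 (0.08 to 0.21).

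**Figure D1:**
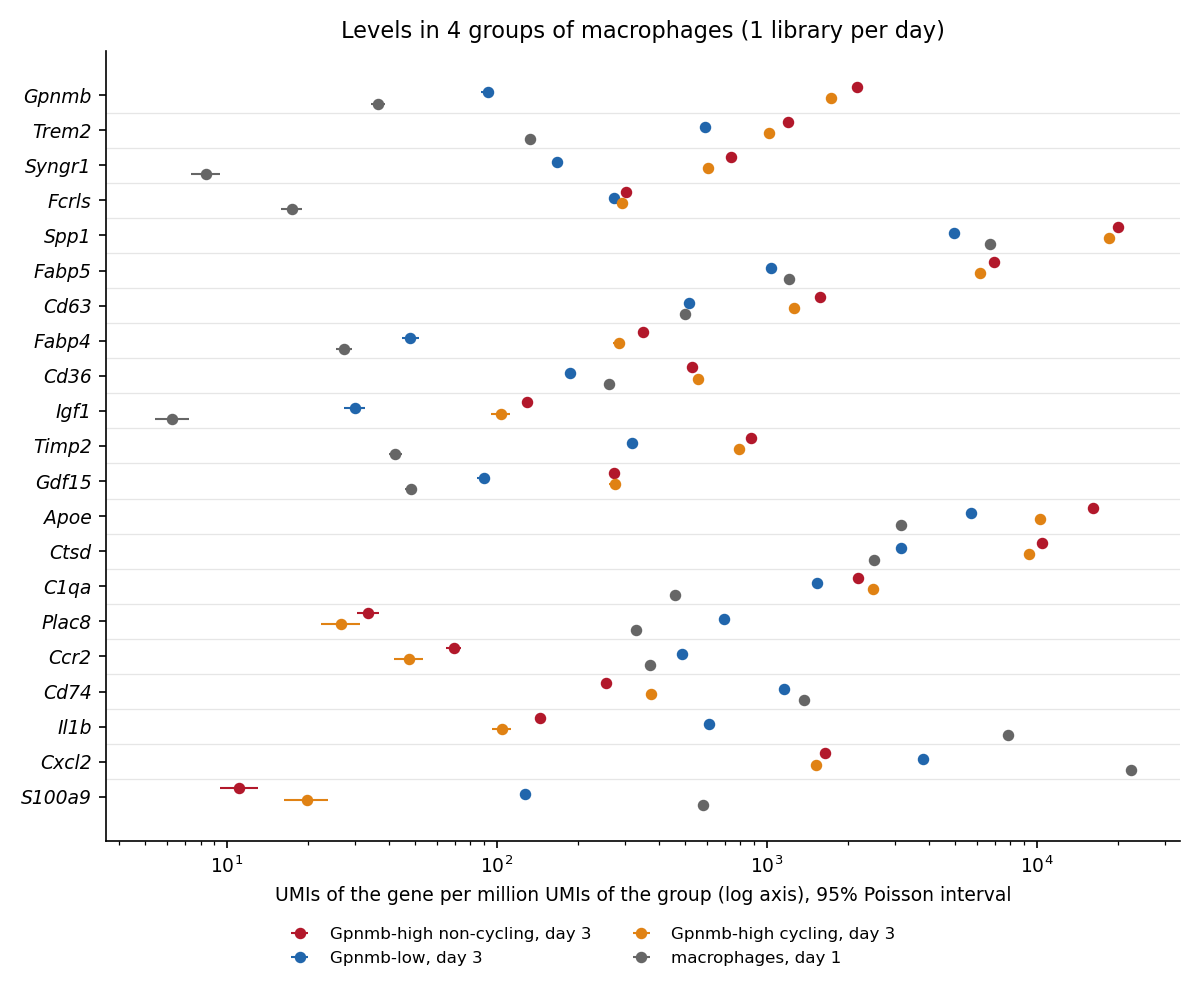
CPM (log axis) of selected genes in the Gpnmb-high non-cycling macrophages of day 3 and 3 other groups of macrophages, with points for the level and bars for the exact Poisson 95% interval. Gpnmb, Syngr1, Fabp5 and Ctsd lie together in both Gpnmb-high groups and lower in the Gpnmb-low and day 1 groups, and Plac8, Ccr2, Cd74 and Il1b lie in the opposite order.

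Of 7880 genes with at least 200 UMIs over the Gpnmb-high and Gpnmb-low macrophages, 142 were at least 2-fold higher in the Gpnmb-high cells, 1.8% of the genes compared, and 331 were at least 2-fold lower, 4.2%. The median log2 ratio of all of them was -0.11. With ratios centred on that median the counts were 187 higher (2.37%) and 271 lower (3.44%). The criteria were also applied after thinning every cell to 3000 UMIs, so that depth did not enter them. Then 96 genes were higher (1.19%) and 238 lower (2.96%), and 91 and 231 of these were among the first set. The same limits mean fewer UMIs at that depth, and the groups changed, to 792 Gpnmb-high, 1014 Gpnmb-low and 64 cycling Gpnmb-high cells. How far this moved the counts was not tested. Among the higher genes were proteins of fatty acid transport, of the lysosome and of the extracellular space. Stra6l, a membrane receptor for retinol-binding protein, had the highest log2 ratio at 3.19 (2.58 to 3.91), on levels of 13.7 and 1.48 CPM. Cd5l, a secreted protein of tissue macrophages, stood at 104 CPM against 12.2. F7, coagulation factor VII, stood at 75.9 against 8.88. These were low to middling levels. Ctsk, Fabp4, Atp6v0d2 and Fabp5 followed with log2 ratios of 2.99, 2.86, 2.81 and 2.74. Of these, Fabp5 and Fabp4 were more abundant, at 6929 and 347 CPM, and Ctsk and Atp6v0d2 were not, at 32.0 and 41.2. The metalloproteinase Mmp27, the sialic acid-binding lectin Cd22 and the protease inhibitor Serpine2 had log2 ratios of 2.68, 2.40 and 2.39. The bridging protein Mfge8, the adenylyl cyclase Adcy3, the aminopeptidase Anpep, the phosphodiesterase Gdpd1 and Syngr1 had 2.32, 2.28, 2.21, 2.17 and 2.15.

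Monocyte genes led the lower genes, and so the comparison was repeated, after these values were seen, among cells of either group with no UMI of Plac8 or Ly6c2 and at least 1 UMI of C1qa, a gene of mature macrophages. This C1qa-matched comparison held 404 Gpnmb-high cells, with a median of 18800.5 UMIs, and 297 Gpnmb-low macrophages, with a median of 13612. Of 5653 genes 44 were at least 2-fold higher (0.778%) and 68 at least 2-fold lower (1.2%). Of these, 34 and 46 were among the 142 and 331 of the full comparison. Where the limits were set on the Gpnmb-low macrophages alone, 54 genes were higher (0.809%) and 61 lower (0.914%). Far fewer genes thus passed 2-fold among macrophages matched in this way. Counts of both comparisons are given for the groups of genes other than those of microglia, neutrophils, heat shock and cell division. They stand beside shares over all genes of 1.8% higher and 4.2% lower in the full comparison, and 0.778% and 1.2% in the C1qa-matched one. The share of all genes above 0 was not counted, but the median log2 ratios over all genes were -0.11 and -0.12. Of 12 macrophage identity genes none was at least 2-fold higher and 1 was at least 2-fold lower, with 6 above 0 and 6 below. In the C1qa-matched comparison these were none and 1 of 11, with 5 above 0. Of 5 genes of resident-like macrophages 1 was at least 2-fold lower in either comparison and none higher, with 4 and 3 above 0.

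Scar-associated macrophages, known from fibrotic tissue, are defined in earlier work by 6 genes, among them Gpnmb and Trem2. The study found these genes in its Gpnmb+Spp1+ subcluster, which includes cells of these samples, so their direction here is not independent evidence. All 4 that were not criteria here were at least 2-fold higher than in Gpnmb-low macrophages, but 2 in the C1qa-matched comparison, where Spp1 and Fabp5 passed and Cd63 and Cd9 had log2 ratios of 0.84 and 0.79. Spp1, the secreted matrix protein osteopontin, was the most abundant of them at 19958 CPM (19882 to 20034), against 4955. Per cell its quartiles were 6277, 13573 and 24969 CPM in the Gpnmb-high cells and 147, 1141 and 4634 in the Gpnmb-low macrophages, so the upper quartile of the latter lay under the lower quartile of the former. The tetraspanins Cd63 and Cd9, membrane proteins of endosomes and of the cell surface, stood at 1577 and 482 CPM against 518 and 157.

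Lysosomal genes were higher as a group. Of 35 genes for lysosomal enzymes and membrane proteins, 11 were at least 2-fold higher, 1 was at least 2-fold lower and 32 lay above 0, with a median log2 ratio of 0.77. In the C1qa-matched comparison 4 were at least 2-fold higher and 33 lay above 0, with a median of 0.50. Ctsd, the aspartic protease cathepsin D, stood at 10439.5 CPM (10384 to 10495) against 3157, and Ctsb, the cysteine protease cathepsin B, at 12242 against 4783. Per cell the quartiles of Ctsd were 6169, 9195 and 13309 CPM against 719, 1570.2 and 3466. For this abundant enzyme, as for Spp1, the middle ranges of both groups of cells did not overlap. How many of all genes compared showed this was not counted, and such ranges were not taken among the C1qa-matched cells. Psap, the precursor of the saposins that present sphingolipids to lysosomal enzymes, stood at 8166 CPM against 3090.1. Lipa, the acid lipase that frees cholesterol and fatty acids from engulfed lipid, stood at 462 against 195. The enzymes thus included those for protein, for sphingolipid and for cholesteryl ester. Ctsk, a collagen-degrading cathepsin best known from osteoclasts, was rarer at 32.0 CPM but had the highest ratio of the list, with 3.99 in Gpnmb-low macrophages. Ctsc, the cathepsin that activates serine proteases of granules, was the exception at 609 CPM against 1384. The 16 subunits of the V-ATPase, the pump that acidifies lysosomes, all lay above 0 with a median log2 ratio of 0.37, but 15 of them were within 2-fold. In the C1qa-matched comparison 15 lay above 0 and again 1 passed 2-fold. Only Atp6v0d2, an isoform also known from osteoclasts, passed 2-fold, at 41.2 CPM against 5.86. Of 7 osteoclast-associated genes, 3 passed 2-fold, and 2 in the C1qa-matched comparison, where Acp5 had a log2 ratio of 0.40. The 3 were Ctsk, Atp6v0d2 and Acp5, the tartrate-resistant acid phosphatase, while the receptor Tnfrsf11a and the transcription factor Nfatc1, which drive osteoclast formation, had log2 ratios of -0.41 and -0.38.

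Many lysosomal genes carry short promoter sites for the MiT family of transcription factors, and the promoters of the genes that were higher were searched for them. RefSeq promoters of GRCm38.p6, from 250 bases before to 50 after the gene start, matched 6376 of the 7874 genes compared other than the criteria, 113 of 140 higher genes and 252 of 331 lower genes. The M-box, TCACGTG or TCATGTG on either strand, was in 20.4% (13.4 to 29.0%) of the promoters of the higher genes, 10.7% of all and 5.95% of those of the lower genes. The E-box, CACGTG, which TCACGTG contains, was in 16.8%, 13.2% and 6.35%. The AP-1 letters TGANTCA were in 14.2%, 6.30% and 14.3%, so they were as frequent in lower as in higher genes. Base composition differed too, with a median of 13 CpG per promoter in the higher genes, 21 in all and 7 in the lower genes. Whether that bears on the shares was not tested. The M-box promoters included 23 higher genes. Windows of 30 bases around the match follow for 7 of them that encode lysosomal enzymes or a receptor that sorts such enzymes, and for Fabp3, a fatty acid-binding protein, chosen after their values were seen. Capitals mark the match, and each window reads 5′ to 3′ on the strand of the gene:
Ctsd, chr7:142387908-142387937, minus strand, match starting 99 bases before the gene start: tcgcccgcgtcTCACGTGacccgttgaggg
Naglu, chr11:101070009-101070038, plus strand, match starting 74 bases before the gene start: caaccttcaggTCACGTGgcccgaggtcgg
Dpp7, chr2:25356388-25356417, minus strand, match starting 74 bases before the gene start: ccgccagactaTCACGTGatgctgccccgc
Sgsh, chr11:119355521-119355550, minus strand, match starting 29 bases before the gene start: ggcctgccgtgCACGTGAccgtggggagcg
Igf2r, chr17:12769737-12769766, minus strand, match starting 49 bases before the gene start: gaacgaggacgTCACGTGagcaggaggcgg
Gaa, chr11:119267811-119267840, plus strand, match starting 141 bases before the gene start: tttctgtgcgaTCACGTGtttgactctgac
Acp5, chr9:22130670-22130699, minus strand, match starting 90 bases before the gene start: agtccagtgctCACATGAcccaaggggagg
Fabp3, chr4:130308681-130308710, plus strand, match starting 46 bases before the gene start: ggccactttcaTCATGTGatgcgagggcta
Ctsd, Naglu, Dpp7, Sgsh, Igf2r, Gaa and Acp5 stood at log2 ratios of 1.73, 1.38, 1.36, 1.15, 1.12, 1.03 and 1.09 over Gpnmb-low macrophages and Fabp3 at 2.12. Naglu, Sgsh and Gaa degrade heparan sulfate and glycogen, Dpp7 is a peptidase, and Igf2r carries mannose-6-phosphate-tagged enzymes to the lysosome. The promoters of Gpnmb and Trem2 held the AP-1 letters alone, and those of Syngr1, Fcrls and Spp1 held none of the letters searched. A match is a description of the letters and shows no binding. The MiT family genes Mitf, Tfec, Tfe3 and Tfeb had log2 ratios of 0.19, -0.036, -0.30 and 0.020 over Gpnmb-low macrophages, all within 2-fold. Whether these factors bear on the higher genes was not tested.

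Genes of lipid handling were higher in part. Of 25 compared genes for lipid uptake, storage and efflux, 9 were at least 2-fold higher, 1 was at least 2-fold lower and 19 lay above 0. In the C1qa-matched comparison 4 were at least 2-fold higher, 2 at least 2-fold lower and again 19 lay above 0. Fabp5, a cytosolic fatty acid-binding protein, stood at 6929 CPM (6884 to 6974) against 1035 in Gpnmb-low macrophages, and Fabp4, the form of fat cells and macrophages, at 347 (337 to 358) against 47.8. Per cell the quartiles of Fabp5 were 2500.0, 5458 and 9656 CPM against 0, 254 and 1068. The middle ranges did not overlap here either, again over all Gpnmb-low macrophages. For uptake, Cd36, a scavenger receptor for oxidized lipid and apoptotic cells, stood at 529 CPM against 187, and Lpl, the lipoprotein lipase, at 897 against 532. For export of cholesterol, Apoe stood at 16195 against 5718, and the transporters Abca1 and Abcg1 at 193 and 116 against 86.7 and 38.3. Nr1h3, the oxysterol-sensing nuclear receptor that switches on these export genes, stood at 80.3 against 30.2, and its partner Rxra had a log2 ratio of 1.05. These export genes and their receptor were therefore all higher in the full comparison, while the receptor gene Scarb1 of the same list had a log2 ratio of -0.83. Olr1, a receptor for oxidized lipoprotein, stood at 10.6 CPM against 20.7.

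Of 18 genes for the clearance of apoptotic cells, 3 were at least 2-fold higher and none was 2-fold lower, against 2 and 1 of 17 in the C1qa-matched comparison. In the full comparison they were Cd36 and a pair of bridging proteins that bind phosphatidylserine on dying cells, Mfge8 at 41.4 CPM against 8.24 and Gas6 at 164 against 74.6. Mertk, the receptor that binds Gas6, stood at 54.3 against 29.0, and Axl, a second Gas6 receptor, at 17.7 against 28.1. The complement genes C1qa and C1qb stood at 2184 and 3007 against 1539.6 and 1958, within 2-fold. Of 10 genes of iron and heme handling, Slc48a1, which carries heme out of the lysosome, passed 2-fold at 153 CPM against 73.5, but in the C1qa-matched comparison its log2 ratio was 0.76 and none was 2-fold higher. The ferritin light chain Ftl1 was among the most abundant transcripts at 26280.5 against 13162, with a log2 ratio of 1.00. Hmox1, which breaks heme down, was level at 755 against 759. Cd163, the receptor for hemoglobin, was rare and the only one at least 2-fold lower in either comparison, at 4.09 against 10.6 in the full one.

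**Figure D2:**
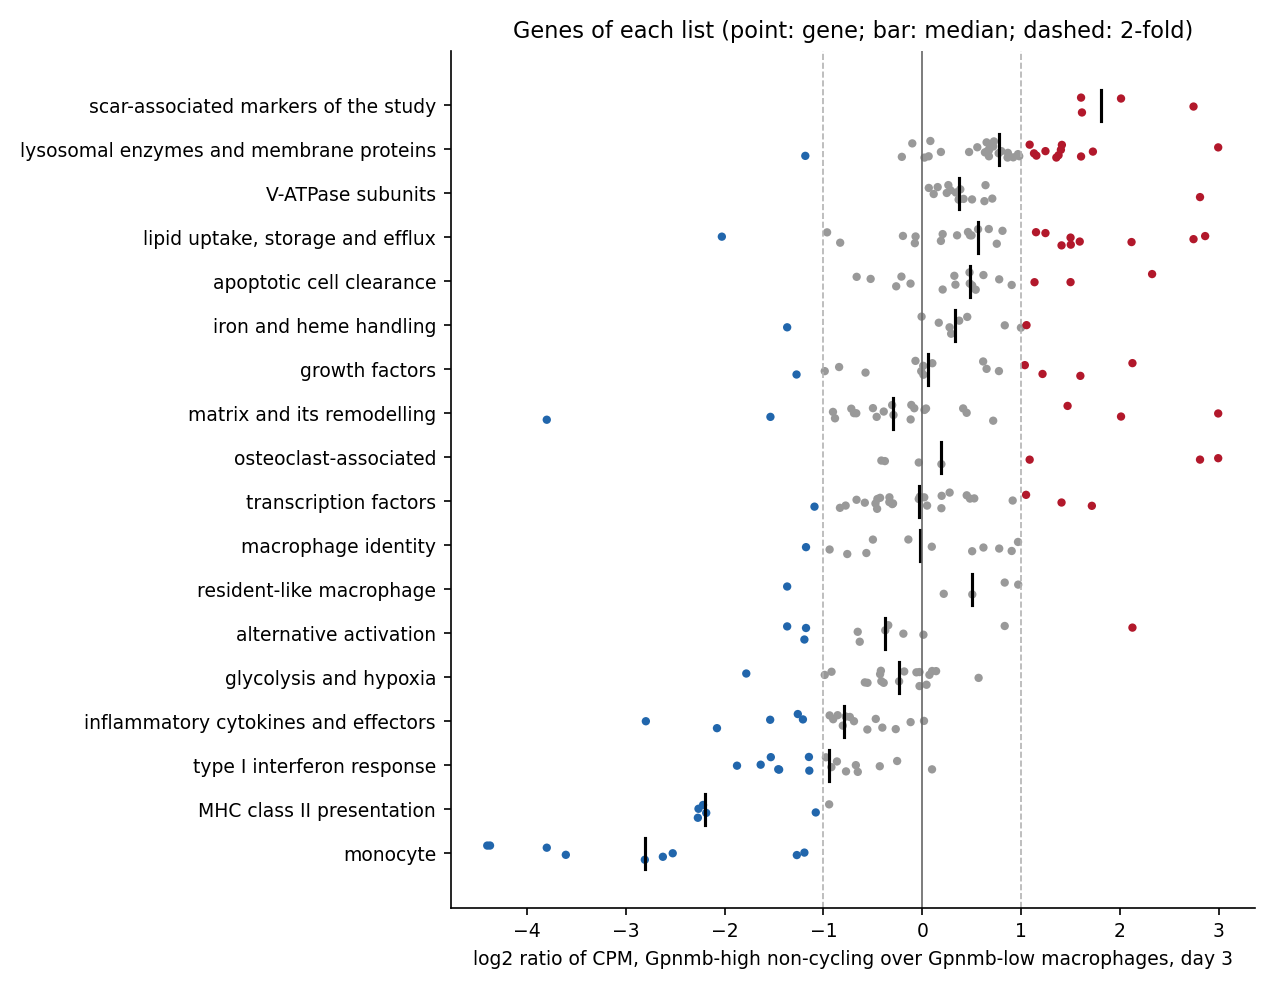
Log2 ratios of CPM, Gpnmb-high non-cycling over Gpnmb-low macrophages of day 3, for each gene of 18 lists with at least 200 UMIs (points) with the median of each list (bars) and 2-fold limits (dashed lines). Lysosomal, V-ATPase and lipid genes lie mostly right of 0 and all compared monocyte and MHC class II genes lie left of it.

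Signals to other cells were mixed. Of 16 growth factor genes 4 were at least 2-fold higher and 1 at least 2-fold lower, against 1 and 2 in the C1qa-matched comparison. Igf1, a growth factor for muscle stem cells and fibres, stood at 130.1 CPM (124 to 136) against 29.8. Gdf15, a stress-induced member of the TGF-beta family, stood at 271 against 89.6, and Gdf3, of the same family, at 56.1 against 27.3. Vegfb passed 2-fold with a log2 ratio of 1.22. Vegfa, the main growth factor for blood vessels, was on the other side at 17.8 CPM against 35.3, and Igfbp4, which binds Igf1, stood at 25.2 against 60.8. Tgfb1, the main fibrogenic factor of macrophages, was level at 317 against 315. Of 23 genes of the extracellular matrix and its remodelling, Spp1, Ctsk and the metalloproteinase inhibitor Timp2 were at least 2-fold higher, and the proteoglycan Vcan and the matrix protein Tgfbi at least 2-fold lower. In the C1qa-matched comparison 3 were higher and 4 lower, with Timp2 within 2-fold at a log2 ratio of 0.82 and fibronectin, Fn1, and the elastase Mmp12 among the lower at -1.04 and -1.27. Timp2 stood at 879 CPM against 317, and Tgfbi at 505 against 1464. Among 27 transcription factors, Bhlhe41, Nr1h3 and Rxra were at least 2-fold higher and Cebpb at least 2-fold lower, against 1 higher and 1 lower in the C1qa-matched comparison. Bhlhe41, a repressor known from alveolar macrophages and microglia, stood at 46.7 CPM against 14.2, and Cebpb, a factor of inflammatory myeloid cells, at 811 against 1727.

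Markers of microglia were split. Of 14 genes known from disease-associated microglia, 8 were at least 2-fold higher and 1 at least 2-fold lower. Several of them are the lysosomal and lipid genes above, such as Ctsd, Apoe and Cd63, and the lower one was the chemokine Ccl6 at 401 CPM against 911. Of 8 genes of homeostatic microglia 1 passed 2-fold. Cx3cr1, the fractalkine receptor, stood at 104 against 153 and Tmem119, a microglial surface protein, at 27.3 against 50.1.

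The lower genes began with those of blood monocytes. All 9 monocyte genes were at least 2-fold lower than in Gpnmb-low macrophages, with a median log2 ratio of -2.81. Without the 2 used to match cells, 5 of 7 were at least 2-fold lower in the C1qa-matched comparison, with a median of -1.25. With the limits set on the Gpnmb-low macrophages alone 2 of 7 were at least 2-fold lower and 1 was at least 2-fold higher, with a median of -0.29. Plac8 stood at 33.4 CPM (30.4 to 36.7) against 693. Ccr2, the receptor that draws monocytes out of the marrow and into tissue, stood at 69.4 against 486, and Ly6c2, which encodes Ly6C, at 56.6 against 326. None of these was wholly absent from the Gpnmb-high cells. Among the lowest log2 ratios were those of Ifitm6 at -4.44, Plac8 at -4.37, Mcemp1 at -3.80, Vcan at -3.80, Ear2 at -3.73 and Fpr2 at -3.72. Hp, which binds free hemoglobin, the calcium-binding S100a9, Lrg1, Gpr141 and Wfdc21 followed with -3.61, -3.51, -3.46, -3.42 and -3.31. Several of these are shared by neutrophils. The neutrophil genes S100a8 and S100a9 stood at 61.1 and 11.1 CPM against 587 and 127, and the neutrophil gene Csf3r was level at 33.6 against 33.9. The 6 neutrophil markers together ran at 137 CPM in the Gpnmb-high cells and 793 in the Gpnmb-low macrophages. Their part in these differences was not tested.

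Antigen presentation by MHC class II was lower too. Of 6 compared genes 5 were at least 2-fold lower, and 4 in the C1qa-matched comparison. H2-Aa and H2-Eb1, chains of the class II molecules, stood at 69.1 and 54.9 CPM against 333 and 264. Cd74, their invariant chain, stood at 255 against 1159.8. After thinning 16.5% of the Gpnmb-high cells and 38.4% of the Gpnmb-low macrophages had 2 or more UMIs of the 8 listed class II genes. Before thinning these shares were 62.1% and 74.1%. Of 16 genes of the type I interferon response 7 were at least 2-fold lower, but 1 in the C1qa-matched comparison. Among the 7 were the chemokine Cxcl10 at 51.6 against 189 and the antiviral membrane protein Ifitm3 at 926 against 2679. Others were close, such as Cmpk2 at 28.8 against 26.9 and the antiviral enzyme Rsad2 at 112 against 133.

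Among 18 inflammatory cytokines and effectors 5 were at least 2-fold lower and none was higher by that much, against 7 lower in the C1qa-matched comparison. Il1b, the cytokine interleukin-1 beta, stood at 145 CPM (138 to 152) against 611, Cxcl2, a neutrophil-attracting chemokine, at 1651 against 3813, and Clec4e, a receptor for dead cells and mycobacterial lipid, at 59.6 against 414. The chemokines Ccl3 and Ccl4 did not share this and stood at 595 and 970.4 against 588 and 1053. Genes of alternative activation did not form a block. Of 11 compared, Igf1 was at least 2-fold higher, and Mrc1, Chil3 and Cd163 were at least 2-fold lower. The counts were again 1 and 3 in the C1qa-matched comparison, with Chil3 within 2-fold at a log2 ratio of -0.17. Mrc1, the mannose receptor CD206, stood at 192 CPM against 435. Folr2, a folate receptor of resident macrophages, stood at 366 against 206. Of 19 genes of glycolysis and hypoxia, the lactate exporter Slc16a3 alone passed 2-fold, at 31.3 against 108, while none did in the C1qa-matched comparison, and Gapdh was level at 2275 against 2124. All 8 heat shock genes lay below 0, with Hspa1b, a chaperone induced by stress, at 589 against 1384.

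In the C1qa-matched comparison the fatty acid-binding genes stayed far apart. Fabp5 stood at 7183 CPM against 1490.5, a log2 ratio of 2.27, and Fabp4, Cd5l, F7 and Ctsk had log2 ratios of 2.54, 2.88, 2.88 and 2.20. Spp1, Syngr1, Igf1, Psap and Ctsd remained past 2-fold with 1.54, 1.35, 1.33, 1.31 and 1.15. Apoe, Cd9, Timp2 and Cd36 came within 2-fold, with 0.97, 0.79, 0.82 and 0.70. Fcrls turned over, at 323 CPM against 489.7, a log2 ratio of -0.60 (-0.69 to -0.52). Class II genes had still lower ratios than in the full comparison, with H2-Eb1 at -2.98, H2-Aa at -2.78 and Cd74 at -2.45. Ccr2, Igfbp4, Mrc1 and Il1b were also at least 2-fold lower, with -2.35, -2.08, -1.35 and -1.23. The difference in Hp, Lrg1 and S100a8 was no longer there, with -0.15, 0.017 and -0.17. Class II genes and Ccr2 were thus lower in both comparisons, and these last 3 genes in the full comparison alone.

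**Figure D3:**
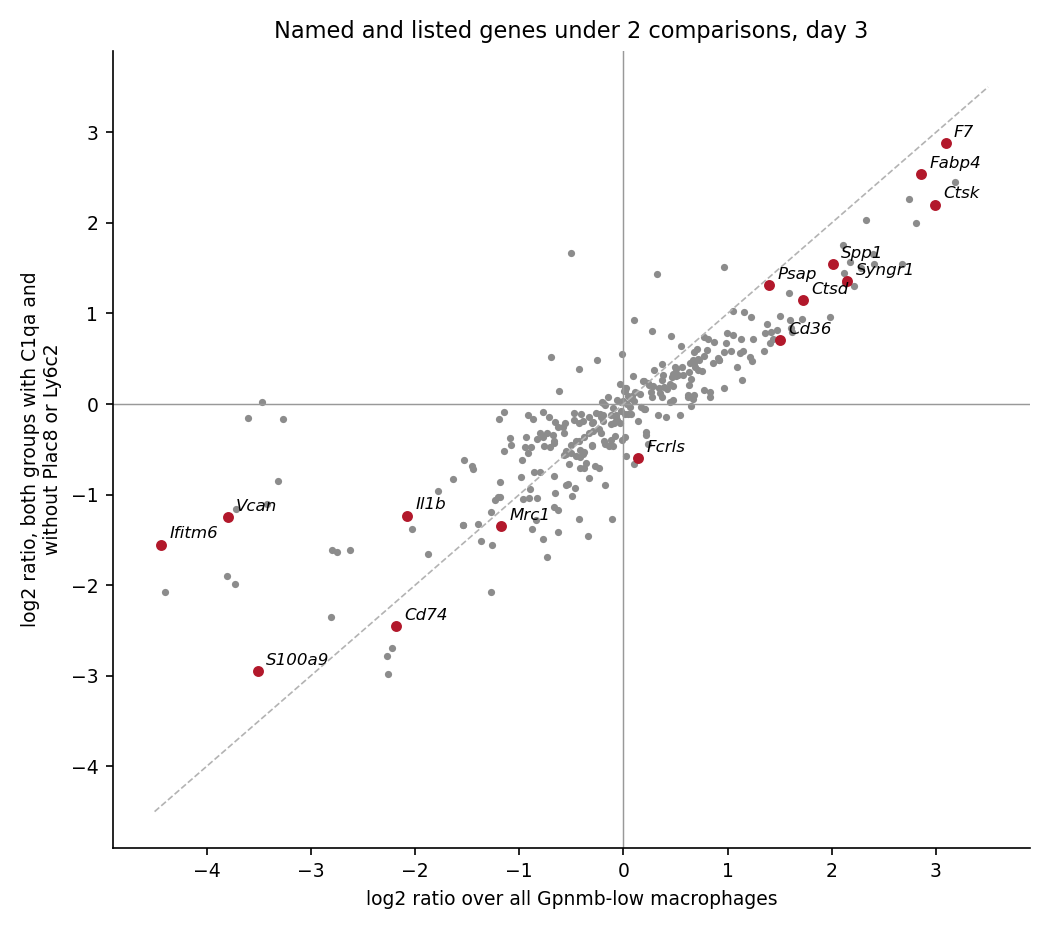
Log2 ratio of CPM of each named or listed gene over all Gpnmb-low macrophages (horizontal) and among cells with C1qa and without Plac8 or Ly6c2 in both groups (vertical), with the line of equal ratios dashed. Fabp4, F7 and Psap lie near that line, Vcan and Ifitm6 lie nearer 0 on the vertical axis, and Fcrls lies above 0 on the horizontal axis and below 0 on the vertical.

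The cells were also described over finer steps of Gpnmb, the gene that chose them, so these steps divide the same groups and give no separate support. Non-cycling macrophages of day 3 with an Adgre1 UMI and any Trem2 count were divided into 842 with no Gpnmb UMI, 459 under 0.05% of UMIs, 172 from 0.05 to 0.1%, 250 from 0.1 to 0.2% and 275 at 0.2% or more. Of 7880 genes 403 (5.11%) were higher at each step than at the one before and 1001 (12.7%) were lower at each. Fabp5 stood at 579, 1637, 3945, 6060.1 and 9120.1 CPM over the steps, Spp1 at 3166, 7317, 12530.2, 18476 and 25146, and Syngr1 at 73.3, 291, 571, 662 and 893. For each of them the ratio between the first and the second step exceeded that across the limit of 0.05%. Ctsd and Igf1 followed the same order, from 1867 to 12661 and from 16.7 to 144 CPM. Plac8 went down at each step, from 1001 through 286, 70.4 and 32.3 to 14.9 CPM, and Ccr2 from 622 to 26.5. Fcrls and C1qa followed neither order. Fcrls was highest in the middle, at 198, 370.2, 396, 306 and 249.5 CPM, and C1qa stood at 1238, 1938, 2233, 2274 and 2070.4. The median depth was 9848, 13437, 15796.5, 17803 and 20971 UMIs per cell over the steps and so moved with Gpnmb, and its part in these orders was not tested.

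**Figure D4:**
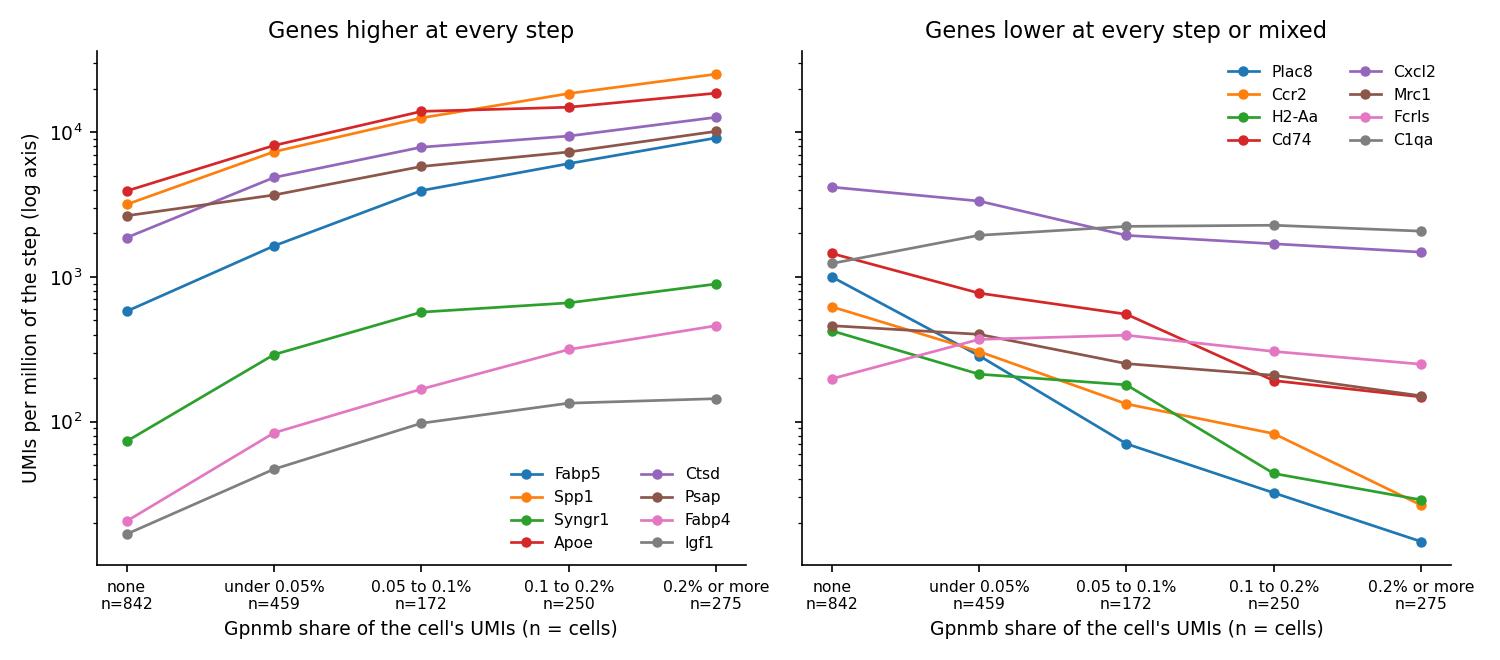
CPM (log axis) of 16 genes in non-cycling macrophages of day 3 over 5 steps of the Gpnmb share of a cell's UMIs (horizontal, with the number of cells). Genes on the left are higher at each step, from 579 to 9120.1 CPM for Fabp5, and on the right Plac8 is lower at each step while Fcrls peaks at the middle step.

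Against the 2310 macrophages of day 1, 1371 of 8205 genes were at least 2-fold higher in the day 3 Gpnmb-high cells (16.7%) and 726 at least 2-fold lower (8.85%), with a median log2 ratio of 0.19. Centred on that median the counts were 1042 (12.7%) and 929 (11.3%). The highest log2 ratios were those of Rapsn, a scaffold protein of the neuromuscular junction, at 7.91 (6.57 to 10.41) with 3 UMIs at day 1, of the serotonin receptor Htr2b at 7.18 and of Syngr1 at 6.47. Mmp27, the lysophospholipid receptor Gpr34, Gm16104, the transporter Abcg3 and the DNA repair gene Zranb3 followed with 5.69, 5.46, 5.44, 5.33 and 5.32. Serpinb2, the plasminogen activator inhibitor of inflamed myeloid cells, had 1 UMI in the Gpnmb-high cells and 4490 at day 1, a log2 ratio of -10.35 (-16.24 to -8.46). Cstdc4 and Crispld2 had no UMI in the Gpnmb-high cells and were at least 38.2-fold and 30.1-fold lower than at day 1, from a floor of 3 UMIs over the group. The chemokines Cxcl3, Ccl24 and Ppbp, the joint lubricant Prg4 and the cytokine Il1a had log2 ratios of -7.77, -6.67, -6.37, -6.13 and -6.10.

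All 20 inflammatory genes compared lay below 0 and 17 were at least 2-fold lower than at day 1. Il1b stood at 145 CPM against 7843 and Cxcl2 at 1651 against 22326, each still detected. Markers of neutrophils, which also carry Il1b and Cxcl2, moved with these genes. The 6 neutrophil markers together ran at 137 CPM in the Gpnmb-high cells and 1758 in the day 1 macrophages, and after thinning 6.62% and 28.1% of cells had 2 or more of their UMIs. Their part in the inflammatory genes was not tested. Of 20 genes of glycolysis and hypoxia 8 were at least 2-fold lower and none was higher by that much, with Vegfa at 17.8 against 136 and the glucose transporter Slc2a1 at a log2 ratio of -2.82. In lysosomal genes 23 of 35 were at least 2-fold higher and 34 lay above 0. Lipa stood at 462 CPM against 59.7. Of 26 lipid genes 15 were at least 2-fold higher, with Apoe at 16195 against 3156, and 3 were at least 2-fold lower. Of 18 clearance genes 12 were at least 2-fold higher, with Gas6 at 164 against 11.3 and C1qa at 2184 against 458. Of 9 homeostatic microglia genes 7 were at least 2-fold higher, Cx3cr1 at 104 against 6.74. Growth factors went both ways. Igf1 stood at 130.1 CPM against 6.28 and Hgf, a growth factor that wakes muscle stem cells, had a log2 ratio of 3.57, while the epidermal growth factor relatives Areg and Ereg had -4.37 and -6.72. Interferon genes stood apart from the comparison within day 3. Of 15 compared, 9 were at least 2-fold higher than at day 1 and 2 at least 2-fold lower, with Ifit3 at 37.8 CPM in the Gpnmb-high cells, 2.15 at day 1 and 71.5 in the Gpnmb-low macrophages of day 3.

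The 36 cells of day 1 that met all criteria shared some of these genes. They held Spp1 at 24917 CPM, Fabp5 at 6166 and Cd36 at 521, against 19958, 6929 and 529 in the day 3 cells. Gdf15 was likewise close, at 261 against 271. They differed in other genes. Syngr1 stood at 99.4 against 741 and Fcrls at 22.1 against 300.3. Timp2 and Igf1 stood at 105 and 40.5 against 879 and 130.1. The early cells also held inflammatory genes, with Il1b at 2986, Cxcl2 at 19906 and the arginase Arg1 at 1151, against 145, 1651 and 26.3. Cells with Gpnmb at 1 day after injury thus had the osteopontin and fatty acid-binding genes of the later cells without their levels of Syngr1, Fcrls or Timp2.

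Beside the cycling Gpnmb-high macrophages the non-cycling cells differed most in genes of cell division. Of 6983 genes 11 were at least 2-fold higher (0.158%) and 258 at least 2-fold lower (3.69%). The comparison shares its criterion with these genes, since Top2a and Mki67 divided the cells, and the cycling cells were deeper, with a median of 26372 UMIs. All 15 S phase genes and all 12 compared mitosis genes were at least 2-fold lower. The lowest were Nusap1, Cenpf, Hist1h1b, Ccna2, Pbk and Rad51ap1, with log2 ratios of -6.67, -6.47, -6.30, -6.21, -5.69 and -5.37, genes of the spindle, the centromere, histones, cyclin and DNA repair. None of the lipid, lysosomal, V-ATPase or clearance genes differed by 2-fold. Ctsd stood at 10439.5 CPM against 9392, Fabp5 at 6929 against 6171 and Spp1 at 19958 against 18609. The higher genes were led by Tcp11l2, Vegfa, Il18bp, an inhibitor of interleukin-18, the elastase Mmp12, Hspa1b and Chil3, with log2 ratios of 1.31, 1.15, 1.12, 1.08, 1.08 and 1.05. With the criteria applied after thinning to 3000 UMIs, 43 genes were higher (0.633%) and the log2 ratio of Mmp12 was -1.49. The cycling group then held 64 cells in place of 205. Apoe, within 2-fold, stood at 16195 against 10329.8.

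The 720 cells were not alike among themselves. To compare them at one depth, 710 were thinned to 3000 UMIs and 10 shallower cells were left out, and the variance of a gene over cells was divided by its mean, which is near 1 for counting error alone. Over 748 genes the median ratio was 1.13 and the 95th percentile 3.79. Spp1 varied most, at a ratio of 44.4, with 7 UMIs at the 10th percentile of cells, 41 at the median and 123 at the 90th. Apoe followed at 35.5, with 9, 39 and 111 UMIs. Gm42418, a locus that overlaps ribosomal RNA, had 26.0, Lyz2, itself a criterion, 21.2, Cxcl2 12.9, Fabp5 12.6, Cd74 12.2 and Hmox1 11.6. The ratio can grow with the mean of a gene, and the limits that chose the cells cut the range of Gpnmb, Trem2 and Lyz2, so their ratios are not comparable with those of other genes. Gpnmb had a ratio of 4.02, Fcrls 2.20, Syngr1 1.57 and Trem2 1.37.

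**Figure D5:**
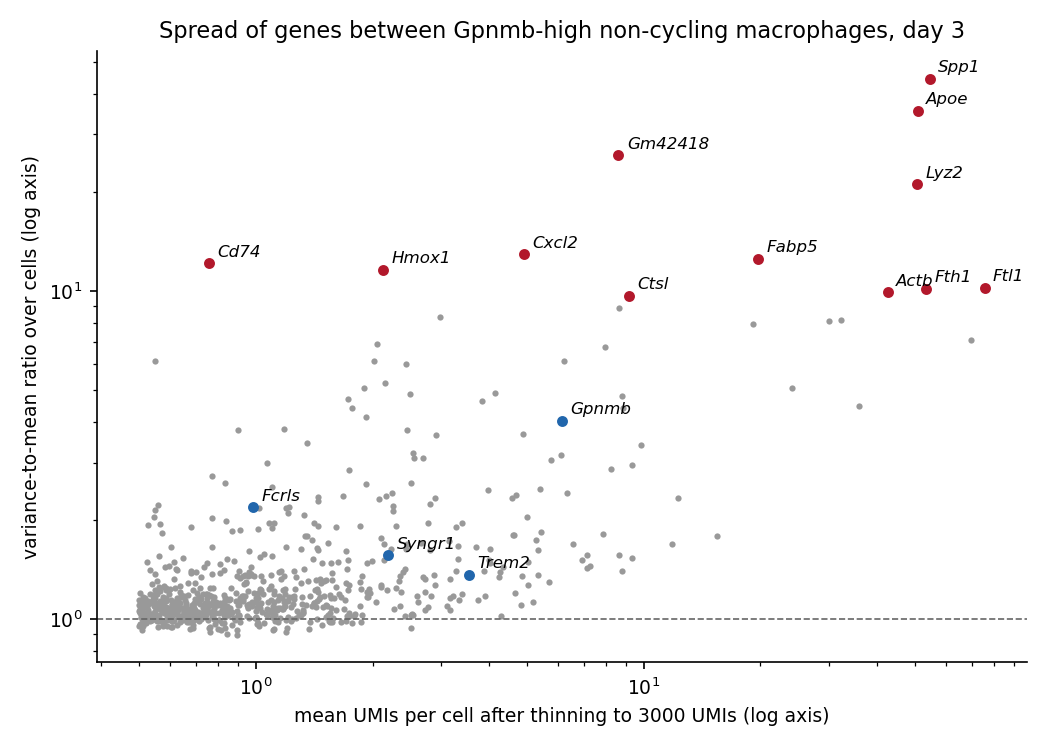
Variance-to-mean ratio over 710 Gpnmb-high non-cycling macrophages thinned to 3000 UMIs (vertical, log axis) against the mean UMIs per cell (horizontal, log axis) for 748 genes, with counting error alone at 1 (dashed). Spp1 and Apoe have the highest ratios, 44.4 and 35.5, and Trem2 and Syngr1 lie near the dashed line.

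Genes that varied together were described by Pearson correlations over the thinned cells, which share one library and are not replicates. Of 279378 pairs of genes 193 reached 0.3 in size (0.0691%), and the median size was 0.0314. The complement genes C1qb and C1qc had 0.77, Ctsd and Ctsb 0.61, the heat shock genes Hspa1b and Hspa1a 0.61, Psap and Ctsb 0.56, Cxcl2 and Nfkbia, an inhibitor of NF-kappaB, 0.54, and the chemokines Ccl2 and Ccl7 0.54. These pairs were chosen for their size, and whole groups of genes were not examined. Gpnmb had 0.44 with Psap, 0.35 with Fabp5, Ctsd and Ftl1, and 0.34 with Ctsb. Syngr1 had 0.38 with Ctsd, and Trem2 0.34 with Ctsb. Another contrast lay between Apoe and Lgals3. Apoe had 0.50 with Itm2b, 0.49 with Lyz2 and 0.45 with Selenop, a selenium carrier, and -0.46 with Vim and -0.38 with Lgals3, the sugar-binding galectin-3. Lgals3 had 0.49 with Ctsl, 0.46 with Vim, 0.42 with Anxa2 and 0.40 with Lpl, and -0.41 with Selenop and -0.38 with Fcrls. Fcrls thus fell on the Apoe side of this contrast. C1qa had a UMI in 621 of the cells (86.3%), with a median of 18615 UMIs, and none in the other 99, with a median of 13578. Gpnmb, Spp1 and Apoe stood at 2168, 19762 and 16393 CPM in the former and 2092, 21568 and 14559 in the latter, while C1qb stood at 3325 and 376. Gpnmb was a criterion of all these cells.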

How the data were processed

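The deposited files hold unnormalized UMI counts of 10x Genomics 3-prime libraries for all barcodes, empty droplets included. The submitters' processing notes name Cell Ranger 5.0.0 and the build mm10, and the matrix headers carry another Cell Ranger version. The study took 6640 barcodes of day 3 and 7367 of day 1 as cells, and here the same numbers with the most UMIs were taken. Cells with at least 1000 UMIs, 200 genes and at most 7.5% mitochondrial UMIs were kept, and doublets were kept. UMIs were summed per group. Ratios had 0.5 added to each count and an exact conditional binomial interval, shares a Clopper-Pearson interval. Genes needed 200 UMIs over both groups, and past 2-fold was the call. With 1 library per day no test was made. The members and lists were chosen with earlier results of these data known. Named genes were the criteria and markers, genes of the study's Gpnmb+Spp1+ subcluster, those with the highest and lowest ratios, and the extremes and most abundant genes of each list, a few of which are not reported here. Counting was tested on simulated data. Python 3.11.15, numpy 2.4.6, scipy 1.17.1, pandas 2.3.3 and scanpy 1.11.5 were used.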

Additional observations from a re-analysis of the deposited data

How the results depend on the processing

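The share of day 3 cells, 15.6%, was 16.8% with cells called at 10% of the 99th percentile of UMIs, 12.8% with at least 200 genes per 1000 UMIs, 19.1% and 11.6% with Gpnmb limits of 0.025% and 0.1%, 12.8% with no UMI of Top2a or Mki67, 18.5% after thinning and 6.44% under limits modelled on the study's. Over Gpnmb-low macrophages, genes of 1000 or more UMIs gave 68 higher and 161 lower, 1.86% and 4.41% of 3649 compared. Genes of 50 or more gave 257 and 524, 2.52% and 5.13% of 10209. The limits on Plac8, Ly6c2 and C1qa were added after the data were seen. They gave 54 and 61 on the Gpnmb-low cells alone (0.809% and 0.914%) and 44 and 68 on both groups (0.778% and 1.2%). Over day 1, the counts were 444 and 460 with 1000 or more UMIs (10.1% and 10.4%). They were 2291 higher with 50 or more (22.0%) and 806 higher under limits modelled on the study's (12.6%). Over cycling cells, 17 were higher with 200 genes per 1000 UMIs (0.404%), 20 with Gpnmb at 0.025% (0.268%), 6 with no cycling UMI (0.0859%) and 43 after thinning (0.633%). By the mean of cells 19 were higher (0.272%), and 7 with 5 added to each count (0.1%). With 1000 or more UMIs 3 were higher (0.119%) and with 50 or more 45 (0.464%). The lower genes there were 73 with 200 genes per 1000 UMIs (1.73%), 92 under limits modelled on the study's (2.19%), and 56 and 542 at those count minimums (2.22% and 5.59%). Fewer genes or cells enter under several of these settings, and otherwise the cause was not tested.

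Of 6110 values of named or listed genes over Gpnmb-low macrophages, 4346 stayed within the counting interval and 1757 moved. Changes of direction were counted only for genes past 2-fold in the main setting, which leaves out Fcrls, and there were 7. With the limits on the Gpnmb-low cells alone these were Hp at 1.04, Lrg1 at 0.62, Wfdc21 at 2.98, Chil3 at 0.53, Ifit3b at 0.47 and S100a8 at 0.73, and with both groups limited Lrg1 at 0.017. Of 93 genes past 2-fold, 32 were so under every setting. Over day 1 these counts were 7 changes of direction of 5666 values and 185 of 204 genes. Sparc, carried by stromal cells, had 1.15 with 200 genes per 1000 UMIs, 2.04 with Scrublet doublets removed, 0.31 with a stromal limit of 0.1%, 0.40 after thinning, 1.78 under limits modelled on the study's and 0.041 by the mean of cells, and Cd209a had 1.20 under limits modelled on the study's. Over cycling cells, Mmp12 had -1.49 and Cxcl10 0.18 after thinning, and 30 of 40 genes stayed past 2-fold. Genes used in a setting's own limits were left out of it. Scrublet removed 353 cells of day 3 and 434 of day 1.

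No paired analysis was possible because each day had 1 pooled library, so there was no replicate to leave out. The spread between mice is unknown, and the values describe these libraries only.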
